A study of Mus musculus with 2 samples.

Results

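Excitatory neurons of the embryonic mouse cortex with many captured transcripts of Unc5d, and none of Neurod1 or Eomes, were described from single-cell RNA libraries. The cells were chosen by their raw counts of unique molecular identifiers (UMIs, each a tag of 1 captured RNA molecule). A barcode was a member when it had at least 5 UMIs of Unc5d, 0 of Neurod1, 0 of Eomes, at least 3 of Neurod2 and Neurod6 together, at most 1 of Gad1 and Gad2 together, at most 2 of Hs3st4 and at most 1 of Tfap2d, and when 1000 or more genes were detected and no more than 10% of its UMIs were mitochondrial. By this rule 1711 of 22347 kept barcodes were members, and they are called Unc5d-high cells here. In embryo 4 they were 855 of 10879 kept barcodes, or 7.86% with an exact binomial 95% interval from 7.36% up to 8.38%. In embryo 5 they were 856 of 11468, or 7.46% with an interval from 6.99% up to 7.96%. These intervals cover counting error only. The genes of the rule chose the cells, so their values describe the choice and were not tested.

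The libraries came from 2 embryos at E16.5, 1 library each, and both embryos were labelled WT. The line is spelled EoMltt3 in the sample titles and EomesMllt3 in the design text, and the series title gives the animals as controls from an Eomes-Cre line, without saying whether these embryos carried Cre. No treatment was named, the methods give the mice as C57BL/6J, and a single condition was present, so classes of cells within the same embryos were compared. The tissue was labelled as brain hemispheres, with the cortex dissociated in papain, and the libraries captured the 3′ ends of polyadenylated RNA on the 10x Genomics platform. The replicate was the embryo (n = 2), and the SD and the tests measure the spread between these 2 embryos only. The files held 12825 and 12289 barcodes with 124318613 and 117679925 UMIs in embryos 4 and 5, of which 10879 and 11468 barcodes passed the filters on genes and mitochondrial UMIs. The Unc5d-high cells had a median of 9893 and 8842 UMIs and of 3521 and 3293 detected genes. The libraries shared 46 barcode sequences, 35 of them among kept barcodes, and no barcode was a member in both. A score against simulated doublets marked 55 and 51 members (6.43% and 5.96%), against 947 and 1052 kept barcodes (8.70% and 9.17%), and the marked cells were kept. The marked shares were 3.16% and 3.4% in the Unc5d-low, 6.05% and 8.56% in the Neurod1-positive and 6.49% and 7.42% in the Hs3st4-high cells, the classes of comparison defined further on.

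During cortical neurogenesis, radial glia and Eomes-expressing intermediate progenitors give rise to excitatory neurons that pass through a multipolar stage in the intermediate zone before they become bipolar and migrate along radial fibres into the cortical plate. Unc5d is a netrin receptor of the Unc5 family that also binds the adhesion proteins Flrt2 and Flrt3, and it is known as a gene of multipolar cells and of neurons on their way to the upper layers. Neurod1 is a basic helix-loop-helix factor of newborn neurons. Nrp1 is a co-receptor for class 3 semaphorins, Rnd2 is a small GTPase that promotes radial migration, and Pdzrn3 is a ubiquitin ligase with PDZ domains.

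The label of later Unc5d migrating neurons was checked against Nrp1, Rnd2 and Pdzrn3, since Unc5d itself is part of the rule. Levels are given as CPM, the UMIs of a gene per 1000000 UMIs summed over the cells of a class in 1 embryo. Nrp1 reached 748 and 788 CPM in embryos 4 and 5 in the Unc5d-high cells, Rnd2 190.4 and 192 CPM and Pdzrn3 137 and 141 CPM. In the GABAergic neurons of the same libraries (at least 5 UMIs of Gad1 and Gad2, 0 of Neurod2 and Neurod6) the levels were 124 and 88.5 CPM, 12.5 and 12.7 CPM and 75.8 and 86.0 CPM. All 3 markers were thus above the GABAergic level in both embryos, which does not set the members apart from other excitatory neurons. In the Neurod1-positive cells, defined further on, Nrp1 was at 823 and 831 CPM, Rnd2 at 205 and 183 CPM and Pdzrn3 at 83.8 and 90.6 CPM. Nrp1 and Rnd2 therefore do not check the word later in the label. A UMI of Nrp1 was found in 89.5% and 88.6% of the members, of Rnd2 in 65.0% and 67.8% and of Pdzrn3 in 55.4% and 55.0%, against 27.5% and 23.0%, 9.56% and 8.62% and 17.4% and 16.3% of the GABAergic neurons, whose median depth was 7389 and 7053 UMIs. After each cell was thinned to 3000 UMIs, which left out 21 and 15 shallower members, the shares in the members were 77.2% and 77.8%, 37.8% and 40.7% and 30.7% and 32.9%, and those in the GABAergic neurons 18.8% and 14.8%, 4.10% and 3.31% and 11.6% and 11.2%. Excitatory genes that the rule did not use were present too, with Tbr1 at 106 and 93.1 CPM, Bcl11a at 705 and 771 CPM and Slc17a7, a vesicular glutamate transporter, at 26.5 and 23.1 CPM. After thinning, a UMI of Tbr1 was found in 26.7% and 22.7% of the members and 1.98% and 1.66% of the GABAergic neurons. Bcl11a and Slc17a7 were not set against a background here, so their levels show presence only.

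Nrp1 lies on chromosome 8 from 128358591 to 128505476, Pdzrn3 on chromosome 6 from 101149607 to 101377897, Unc5d on chromosome 8 from 28646717 to 29219671 and Rnd2 on chromosome 11 from 101468175 to 101471853 (RefSeq, GRCm38.p6, the assembly of the mm10 build named for these files). Of the 301 genes of the lists and of the naming rule, 220 had a promoter in the RefSeq table used, which gives 250 bases before and 50 after a start. The promoters of Nrp1, Pdzrn3 and the secreted guidance gene Sema3c are shown because these 3 genes moved together across the range of Unc5d described further on. Capitals mark the E-box CANNTG, the core bound by basic helix-loop-helix factors such as the Neurod proteins. It reads the same on both strands, and it occurred in 72.3% of the 32851 promoters of the table. It was found 2 times in the Sema3c window and not in the other windows, which says only that the letters are not there. The Nrp1 window lies inside the span given above for that gene. It thus belongs to another start than the first base of the span and does not cover the bases before it.
Nrp1, chr8:128358823-128359122, + strand: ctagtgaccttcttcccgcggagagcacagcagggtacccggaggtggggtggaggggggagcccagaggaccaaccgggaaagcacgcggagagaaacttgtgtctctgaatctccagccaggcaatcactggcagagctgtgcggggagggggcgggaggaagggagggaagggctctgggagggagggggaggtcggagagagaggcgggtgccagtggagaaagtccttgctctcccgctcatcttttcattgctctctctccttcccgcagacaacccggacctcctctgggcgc
Pdzrn3, chr6:101377848-101378147, - strand: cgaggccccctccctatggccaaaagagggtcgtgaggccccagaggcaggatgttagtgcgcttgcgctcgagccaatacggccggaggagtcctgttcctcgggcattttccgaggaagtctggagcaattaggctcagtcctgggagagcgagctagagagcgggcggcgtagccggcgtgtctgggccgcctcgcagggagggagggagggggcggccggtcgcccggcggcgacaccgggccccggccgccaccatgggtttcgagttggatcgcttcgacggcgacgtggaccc
Sema3c, chr5:17574566-17574865, + strand: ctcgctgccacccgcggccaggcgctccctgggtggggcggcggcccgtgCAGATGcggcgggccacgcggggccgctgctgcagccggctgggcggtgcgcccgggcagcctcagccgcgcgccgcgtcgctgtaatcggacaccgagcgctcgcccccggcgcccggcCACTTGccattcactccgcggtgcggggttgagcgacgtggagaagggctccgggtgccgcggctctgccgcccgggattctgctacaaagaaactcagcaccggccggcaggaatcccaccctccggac

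Among all barcodes that met every condition other than that on Unc5d (2161 in embryo 4 and 2420 in embryo 5), the Unc5d counts ran from 0 into a long tail. No UMI of Unc5d was found in 823 and 1012 of these barcodes, 1 UMI in 252 and 253, 4 UMIs in 47 and 77, 5 UMIs in 28 and 53, 10 to 19 UMIs in 262 and 256 and 40 or more in 167 and 138. The number per single count dropped steeply up to 5 UMIs. It then showed no steady fall, with 35 and 44 barcodes at 6 UMIs, 36 and 21 at 9 and 38 and 44 at 10. At 20 UMIs there were 18 and 20 barcodes. In embryo 4 the number at 5 UMIs was thus below those at 6 to 10. No count around the threshold of 5 was empty, so the members are the upper range of a distribution without a gap there. Within the members, the median Unc5d count was 19 (quartiles 11 and 35.5, highest 130) in embryo 4 and 18 (10 and 31.25, highest 139) in embryo 5. The cells just inside the threshold, with 5 UMIs, had 465 and 416 CPM of Nrp1, 115 and 119.6 CPM of Rnd2 and 72.9 and 73.2 CPM of Pdzrn3. Those just outside it, with 4 UMIs, had 414 and 519 CPM of Nrp1, 141 and 133 CPM of Rnd2 and 58.6 and 52.6 CPM of Pdzrn3. The cells on either side of the threshold were below the level of all members in these genes, and in Nrp1 their order differed between the embryos.

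**Figure D1:**
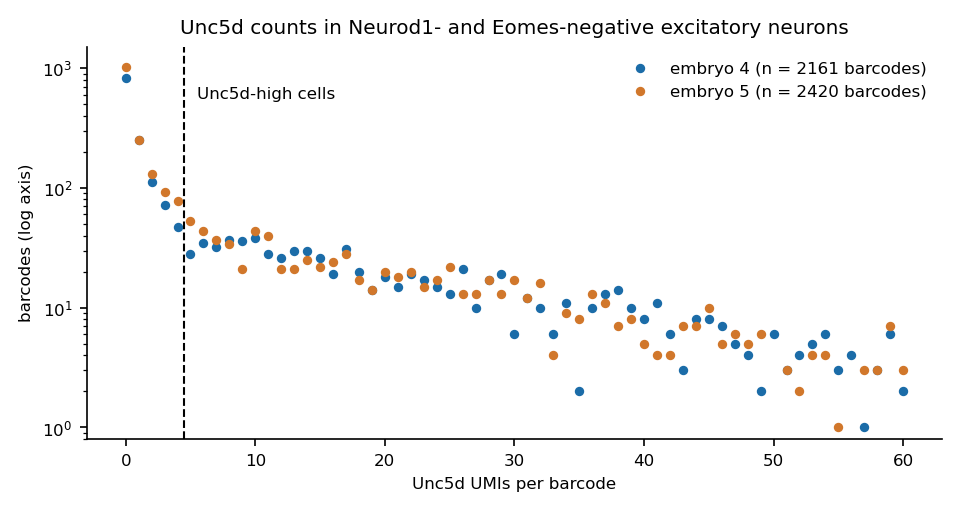
Number of Neurod1- and Eomes-negative excitatory neuron barcodes (y axis, log axis) at each Unc5d UMI count from 0 to 60 (x axis), for embryo 4 (n = 2161) and embryo 5 (n = 2420). Counts with no barcode are not drawn, and the dashed line marks the threshold of 5. The points drop steeply from 823 and 1012 barcodes at 0 UMIs to 28 and 53 at 5. They then show no steady fall up to 10 UMIs and are lower at 20, with no gap at the threshold.

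The Unc5d-high cells were set beside 3 other classes of excitatory neurons of the same embryos. Unc5d-low cells (1075 and 1265) met the same rule with at most 1 UMI of Unc5d. Neurod1-positive cells (777 and 970) had at least 2 UMIs of Neurod1, at most 2 of Hs3st4 and any Unc5d. Hs3st4-high cells (848 and 863) had at least 5 UMIs of Hs3st4, which encodes a heparan sulfate sulfotransferase, 0 of Neurod1 and any Unc5d. The other conditions of the rule held in all classes. Unc5d stood at 2481 and 2470.4 CPM in the members, 19.1 and 18.2 CPM in Unc5d-low, 3150.3 and 3175 CPM in Neurod1-positive and 76.2 and 60.6 CPM in Hs3st4-high cells, values that follow in part from the rule. It was 2581 and 2525 CPM in Eomes-positive cells (at least 2 UMIs of Eomes), 96.1 and 126 CPM in radial glia-type cells (UMIs of Sox2 and Pax6, none of Eomes, Neurod2, Neurod6, Gad1 or Gad2) and 234 and 147 CPM in GABAergic cells, so the Unc5d-high, Neurod1-positive and Eomes-positive classes formed the high end. The Unc5d-low cells were deeper than the members, with a median of 12351 and 10790 UMIs, as were the Hs3st4-high cells (13493 and 11535) and, less so, the Neurod1-positive cells (10763 and 9257). The classes were cut by the counts of a few genes in these same cells, so each comparison says how the other genes differ between cells sorted by those counts. All 3 comparisons share the sums of the Unc5d-high cells.

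Markers of other cell types were low in the members but not absent, and no marker of the 8 lists stood at 0 in them. The 8 GABAergic markers summed to 43.7 and 26.9 CPM in the members, against 10175 and 10027 CPM in GABAergic neurons. The 8 radial glia markers summed to 425 and 483 CPM, against 6955 and 7034 CPM in radial glia-type cells. The 6 microglia markers summed to 4.93 and 3.59 CPM, the 4 oligodendrocyte lineage markers to 1.79 and 1.92 CPM, the 6 Cajal-Retzius markers to 35.3 and 30.4 CPM and the 7 vascular markers to 40.3 and 48.8 CPM. The 5 erythroid markers, mostly haemoglobin, differed most between the embryos, with 212 and 2536 CPM in the members and 657 and 2771 CPM in the Unc5d-low cells.

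**Figure D2:**
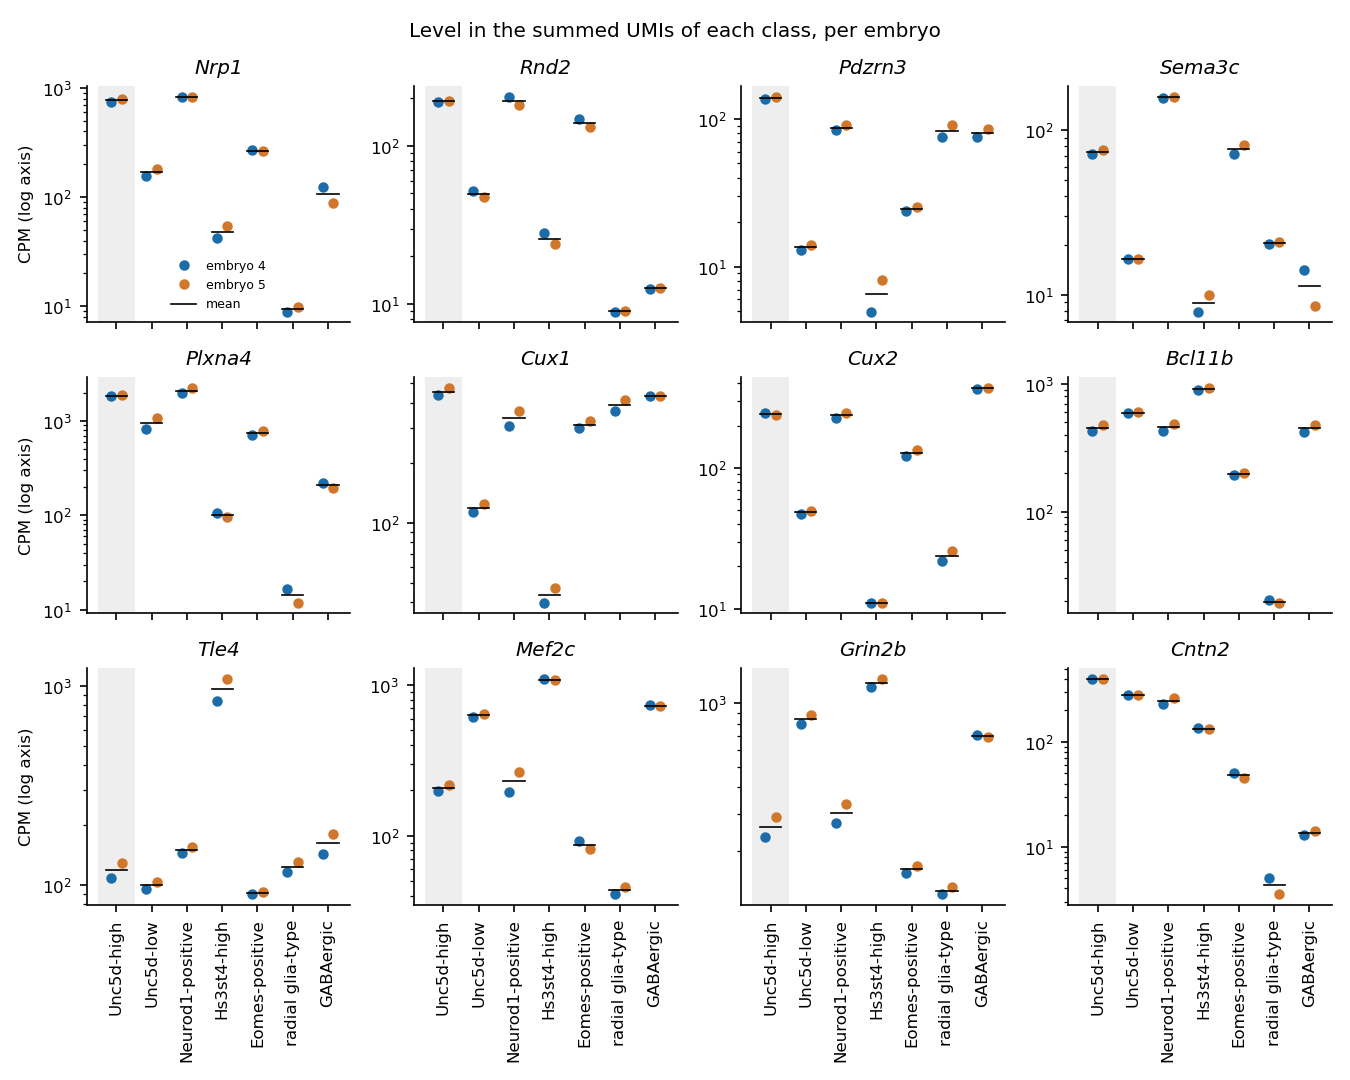
Levels of 12 genes (y axes, CPM, log axes) in the summed UMIs of 7 classes of cells (x axes); points are embryos 4 and 5, black lines their mean, and the grey band marks the Unc5d-high cells. Nrp1, Rnd2, Pdzrn3 and Cux2 were lower in both Unc5d-low and Hs3st4-high cells than in Unc5d-high cells, and the points of the 2 embryos lay close together. In Neurod1-positive cells Nrp1, Rnd2 and Cux2 were near the level of the Unc5d-high cells.

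The comparison with Unc5d-low cells shows how neurons with at least 5 UMIs of Unc5d differed from those with at most 1. Neither class held a UMI of Neurod1 or Eomes. In the Unc5d-high cells 8 of 12 upper-layer transcription factors, 9 of 20 semaphorin and neuropilin genes and 7 of 15 newborn neuron and Notch ligand genes were higher, and 14 of 22 axon and synapse maturation genes and 10 of 22 adhesion genes were lower. With edgeR's quasi-likelihood test, an adjusted p under 0.05 and at least a 1.5-fold change, 729 of 14797 genes were higher (4.93%) and 1059 lower (7.16%). Among cells of 8000 to 16000 UMIs in both classes, 622 genes were higher and 910.0 lower. The genes of the rule were not counted. The median log2 fold change over all tested genes was 0.0033.

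In the semaphorin and neuropilin list, 9 of 20 were higher and 4 lower, with a median log2 fold change of 0.44. Nrp1 was at 748 and 788 CPM in the Unc5d-high and 158 and 180.0 CPM in the Unc5d-low cells (log2 fold change 2.14 ± 0.110 (SE), adjusted p = 7.7e-07). Its signalling partner Plxna4 followed with 1825 and 1902 CPM against 819.7 and 1071 CPM (log2 fold change 0.93 ± 0.118 (SE), adjusted p = 0.00034). The embryos of the 2 classes did not overlap for either gene, and the share of all genes without overlap was not counted. Sema3c, which encodes a secreted ligand, was at 72.1 and 76.4 CPM against 16.6 and 16.5 CPM (log2 fold change 2.12 ± 0.0924 (SE), adjusted p = 2.8e-07), and Sema3a at 110.3 and 119.8 CPM against 62.3 and 67.0 CPM (log2 fold change 0.78 ± 0.0957 (SE), adjusted p = 0.00026). Plxna2, Plxnb1, Sema5a, Sema5b and Sema6d were higher too, by 1.59 to 1.90-fold. The 4 lower genes were Plxna1 (log2 fold change -0.67), Plxnc1 (-0.80), Sema3e (-1.27) and Sema6a (-0.74). Nrp2 (-0.05), Plxna3 (-0.08), Plxnb2 (0.54), Plxnd1 (-0.61), Sema4d (-0.24), Sema6c (0.32) and Sema7a (0.33) were not called. The ligand and receptor genes of the same family thus lay on both sides. The calls of Sema3e and Sema5a were lost among cells of 8000 to 16000 UMIs, and those of Plxna1 and Plxnb1 with Unc5d-high cells taken from 3 UMIs.

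In the netrin, Unc5 and Flrt list, 2 of 11 were higher and 3 lower, with a median log2 fold change of -0.11. Flrt2 encodes a ligand that repels Unc5d-bearing cells, and it was at 145 and 157 CPM in the Unc5d-high and 322 and 331 CPM in the Unc5d-low cells (log2 fold change -1.16 ± 0.0811 (SE), adjusted p = 5.5e-06). Unc5c, a netrin receptor of the same family, was at 23.9 and 30.8 CPM against 73.6 and 98.3 CPM (log2 fold change -1.70 ± 0.345 (SE), adjusted p = 0.00531), and Unc5a at 11.2 and 9.34 CPM against 20.4 and 18.5 CPM (log2 fold change -0.97 ± 0.136 (SE), adjusted p = 0.00065). The 3 genes were lower in each embryo of the class with high Unc5d. Flrt1 (1.15) and Dscam (0.76), a netrin receptor of the immunoglobulin superfamily, were the 2 that were higher. The netrin receptor gene Dcc, at 2072 and 2007 CPM against 2581 and 2400.5 CPM, did not pass the fold limit (log2 fold change -0.34 ± 0.0559 (SE), adjusted p = 0.00177), and Flrt3 did not pass the test (log2 fold change 0.29 ± 0.128 (SE), adjusted p = 0.13). Unc5b (0.10), Neo1 (-0.24), Ntn1 (0.42) and Ntn4 (-0.11) were not called either, and of these the netrin ligand gene Ntn1 was at 1.35 and 3.71 CPM in the members.

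Among the radial migration regulators, 4 of 20 were higher and 0 lower, with a median log2 fold change of 0.09. Rnd2 was at 190.4 and 192 CPM against 51.8 and 47.7 CPM (log2 fold change 1.90 ± 0.0846 (SE), adjusted p = 3.2e-07), and Pdzrn3 at 137 and 141 CPM against 13.0 and 14.0 CPM (log2 fold change 3.31 ± 0.130 (SE), adjusted p = 1.6e-07). Plcl1 (1.24) and Nedd9 (0.71) were the others, while the microtubule regulators of migration Dcx (0.09), Dclk1 (-0.32), Pafah1b1 (-0.01) and Ndel1 (-0.04) were not called. Dcx, the gene of doublecortin, stood at 607 and 634 CPM and 549.7 and 579 CPM. The called migration genes were thus 4 of the list, all higher. In the Reelin pathway 0 of 10 were higher and 2 lower, with a median log2 fold change of 0.11. The adaptor gene Dab1 was at 692 and 852 CPM against 1638 and 1642 CPM (log2 fold change -1.13 ± 0.134 (SE), adjusted p = 0.00021) and the receptor gene Vldlr at 22.4 and 20.8 CPM against 47.6 and 45.7 CPM (log2 fold change -1.16 ± 0.0845 (SE), adjusted p = 7.7e-06). The other receptor gene of the pathway, Lrp8, was at 158 and 160.3 CPM against 110.1 and 109 CPM and stayed under the fold limit (log2 fold change 0.49 ± 0.0568 (SE), adjusted p = 0.00018).

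Of the upper-layer transcription factors, 8 of 12 were higher and 2 lower, with a median log2 fold change of 0.81. Cux2 was at 245 and 238 CPM against 47.3 and 49.6 CPM (log2 fold change 2.27 ± 0.0697 (SE), adjusted p = 6.2e-08), Cux1 at 435 and 474 CPM against 114 and 125 CPM (log2 fold change 1.88 ± 0.108 (SE), adjusted p = 1.5e-06) and Pou3f2 at 245 and 214 CPM against 76.4 and 73.6 CPM (log2 fold change 1.57 ± 0.0836 (SE), adjusted p = 9.6e-07). Pou3f3, Pou3f1, Lhx2 and Tcf4 were higher as well. Mef2c and Rorb, also used as upper layer genes, went the other way, and Mef2c was at 199 and 218 CPM against 619 and 641 CPM (log2 fold change -1.64 ± 0.119 (SE), adjusted p = 7.4e-06). Of the deep-layer and subplate genes, 1 of 13 was higher and 6 lower, with a median log2 fold change of -0.44. Fezf2 (-1.61), Ldb2 (-2.23) and Sox5 (-0.96) were among the lower ones, whereas Bcl11b (-0.44), Tbr1 (-0.18) and Tle4 (0.20) were not called. Tcf4 lost its call with Unc5d-high cells taken from 3 UMIs. Ccn2 was the gene of the list that fell under the filter on low counts.

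Of the newborn neuron and Notch ligand genes, 7 of 15 were higher and 1 lower, with a median log2 fold change of 0.59. The somatostatin receptor gene Sstr2 was at 46.3 and 41.8 CPM against 6.21 and 5.91 CPM (log2 fold change 2.81 ± 0.111 (SE), adjusted p = 1.6e-07), and Mfng, a glycosyltransferase that modifies Notch, at 12 and 10.4 CPM against 1.97 and 1.51 CPM (log2 fold change 2.64 ± 0.236 (SE), adjusted p = 3.2e-05). Insm1, a zinc finger factor of neuronal progenitors, was at 75.3 and 83.6 CPM against 25.5 and 24.8 CPM (log2 fold change 1.61 ± 0.0891 (SE), adjusted p = 1.3e-06). Nhlh1, Neurog2, Btg2 and Elavl4 were the other higher genes and Rgs16 the lower one. Btg2 lay next to the fold limit and lost its call under several other settings, and Neurog2 lost it among cells of 8000 to 16000 UMIs. Beside this list, the 7 cycling markers summed to 144 and 197 CPM in the members and 108 and 126 CPM in the Unc5d-low cells, with Mki67 (0.89) and Cenpf (0.93) called higher, and the 8 radial glia markers to 425 and 483 CPM and 360.4 and 337 CPM. The vascular markers summed to 40.3 and 48.8 CPM and 19.9 and 17.0 CPM, with Col4a1 called higher (1.19). The part of cells of these types in the result was not tested.

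Of the axon and synapse maturation genes, 1 of 22 was higher and 14 lower, with a median log2 fold change of -1.17. Grin2b, a subunit of the NMDA receptor, was at 233 and 289 CPM against 799 and 875 CPM (log2 fold change -1.73 ± 0.124 (SE), adjusted p = 7e-06). The synaptic adhesion gene Nlgn1 was at 699 and 753 CPM against 2636 and 2307 CPM (log2 fold change -1.81 ± 0.0935 (SE), adjusted p = 7.7e-07). The growth cone gene Gap43 was at 262 and 279 CPM against 561 and 586 CPM (log2 fold change -1.13 ± 0.0650 (SE), adjusted p = 1.5e-06). Each of these genes was lower in both embryos of the Unc5d-high class. Slc17a6, the vesicular glutamate transporter VGLUT2, was the higher exception, with 105 and 95.9 CPM against 16.3 and 14.0 CPM (log2 fold change 2.68 ± 0.162 (SE), adjusted p = 2.1e-06). Of the microtubule genes, 0 of 16 were higher and 4 lower, with a median log2 fold change of -0.42, and the lower ones were Mapt (-1.34), Stmn2 (-0.98), Kif26a (-2.15) and Tubb2a (-1.32), the last of a family of near-identical tubulin genes whose reads may be shared.

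Of the adhesion genes, 3 of 22 were higher and 10 lower, with a median log2 fold change of -0.51. The cadherins split, since Cdh4 (1.0), Cdh8 (1.48) and Cdh12 (0.77) were higher and Cdh11 (-1.03) and Cdh13 (-1.50) lower. Ncam1 was among the lower genes and fell just under the fold limit with the embryo as a block. Cdh13 was at 480.1 and 542 CPM against 1374 and 1428 CPM and Cdh8 at 409 and 361 CPM against 139 and 129.5 CPM. Of the ephrins and Eph receptors, 5 of 16 were higher and 2 lower, with a median log2 fold change of 0.17, and Epha3 was at 2166 and 1938 CPM against 1049.7 and 873 CPM (log2 fold change 1.05 ± 0.0955 (SE), adjusted p = 3.6e-05) and Ephb1 at 45.1 and 66.3 CPM against 163 and 174 CPM (log2 fold change -1.64 ± 0.140 (SE), adjusted p = 2.3e-05). Of the ion channel genes, 2 of 18 were higher and 7 lower, with a median log2 fold change of -0.30. The higher channel genes were Kcnk2 (0.97) and Kcnd2 (0.82), and Kcnq5 (-1.68) and Cacna1e (-2.05), a calcium channel subunit, were among the lower.

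The 8 called genes with the largest higher fold, at 50 CPM or more in both embryos, were Kcnc2, Pdzrn3, Slc17a6, Ndst3, Plcb1, Zfhx4, Cux2 and the noncoding 9630028H03Rik, between 4.81 and 10.4-fold. Kcnc2, a voltage-gated potassium channel gene, was at 52.9 and 50.3 CPM against 6.43 and 3.24 CPM (log2 fold change 3.37 ± 0.208 (SE), adjusted p = 2.5e-06), and Ndst3, an enzyme gene of heparan sulfate modification, at 241 and 233 CPM against 34.4 and 38 CPM (log2 fold change 2.66 ± 0.107 (SE), adjusted p = 1.9e-07). The 8 with the largest lower fold were Nin, Kctd8, Rgs6, Ndrg1, Grin2a, Kirrel3, Grik3 and Sla. Nin, which encodes the centrosomal protein ninein, was at 40.1 and 49.3 CPM against 357 and 387 CPM (log2 fold change -3.10 ± 0.103 (SE), adjusted p = 6.2e-08). Kirrel3, an adhesion gene of the immunoglobulin superfamily, was at 274 and 428 CPM against 2421 and 2521 CPM (log2 fold change -2.86 ± 0.186 (SE), adjusted p = 3.5e-06). The lower genes included the glutamate receptor subunits Grin2a (-2.89) and Grik3 (-2.77).

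The comparison with Neurod1-positive cells asks how the members differed from neurons with at least 2 UMIs of Neurod1. A count of 0 in a member does not show that Neurod1 was silent, and the members were the shallower class. An order in time between the 2 classes was not tested. Of all genes, 59 of 14797 were higher (0.399%) and 142 lower (0.960%) in the Unc5d-high cells. With the embryo as a block in the same edgeR model the counts were 100 and 237. Nrp1 was at 748 and 788 CPM against 823 and 831 CPM (log2 fold change -0.12 ± 0.104 (SE), adjusted p = 0.769) and Rnd2 at 190.4 and 192 CPM against 205 and 183 CPM (log2 fold change -0.03 ± 0.0795 (SE), adjusted p = 0.943), and neither was called. Pdzrn3 was the marker that differed, with 137 and 141 CPM against 83.8 and 90.6 CPM (log2 fold change 0.66 ± 0.111 (SE), adjusted p = 0.0115). This call of Pdzrn3 was lost at log2 fold changes of 0.52 with Unc5d-high cells taken from 3 UMIs and 0.57 among cells of 8000 to 16000 UMIs.

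Within the guidance genes, and without the block, none of 11 in the netrin, Unc5 and Flrt list was called, and the semaphorin list had 0 of 20 higher and 2 lower. The 2 lower genes were Nrp2, a receptor of class 3 semaphorins, at 66.6 and 66.3 CPM against 151 and 149.9 CPM (log2 fold change -1.19 ± 0.101 (SE), adjusted p = 0.00026), and Sema3c at 72.1 and 76.4 CPM against 158 and 159.8 CPM (log2 fold change -1.11 ± 0.0804 (SE), adjusted p = 0.00012). Both were lower in each embryo of the Unc5d-high class. Sema5a, a transmembrane semaphorin gene, was not called (log2 fold change -0.65 ± 0.198 (SE), adjusted p = 0.185), but was with the embryo as a block (log2 fold change -0.64, adjusted p = 0.0007). Of the migration regulators, 1 of 20 was higher and 1 lower, with a median log2 fold change of -0.02, the lower one being Rnd3, a relative of Rnd2, at 70.5 and 62.6 CPM against 102 and 97.2 CPM (log2 fold change -0.59 ± 0.0960 (SE), adjusted p = 0.00984). Also without the block, none of the 10 Reelin pathway, 16 microtubule and 18 channel genes was called. Their median log2 fold changes were 0.03, -0.06 and 0.11 beside -0.0077 over all genes.

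Of the newborn neuron genes, 0 of 15 were higher and 3 lower, with a median log2 fold change of -0.22. Sstr2 was at 46.3 and 41.8 CPM against 86.2 and 76.0 CPM (log2 fold change -0.89 ± 0.0876 (SE), adjusted p = 0.00076), Mfng at 12 and 10.4 CPM against 25.4 and 25.2 CPM (log2 fold change -1.19 ± 0.171 (SE), adjusted p = 0.00534) and Nhlh2, a basic helix-loop-helix factor, at 8.19 and 7.06 CPM against 18.6 and 22.3 CPM (log2 fold change -1.44 ± 0.171 (SE), adjusted p = 0.00209). By the sign of their log2 fold changes, these genes stood between the Neurod1-positive and the Unc5d-low cells in level. Nhlh2 was not called against the latter (log2 fold change 0.59 ± 0.197 (SE), adjusted p = 0.0562) but was with the embryo as a block (adjusted p = 0.0331). Of the upper-layer factors, 1 of 12 was higher and 0 lower, with a median log2 fold change of 0.14, and Cux1 (0.43) and Cux2 (0.01) were not called. Of the deep-layer genes, 0 of 13 were higher and 4 lower, with a median log2 fold change of -0.02, and Foxp2, Zfpm2, Crym and Nxph4 were the lower ones. Zfpm2, a cofactor of GATA factors, was at 103 and 87.7 CPM against 387 and 279.8 CPM (log2 fold change -1.82 ± 0.132 (SE), adjusted p = 0.00012), and Foxp2 at 153 and 113 CPM against 287 and 243 CPM (log2 fold change -1.0 ± 0.142 (SE), adjusted p = 0.00488).

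Among 22 adhesion and 22 maturation genes, Cntn2 and Cdh12 were higher than in the Neurod1-positive cells and Cdh8, Ncam2, Nrcam and Cntnap2 lower, and Ntm was higher and Slc17a6 lower, at list medians of -0.06 and -0.07. Of 16 ephrins and Eph receptors, Epha4 was called, as lower (-0.70), at a list median of -0.13. Cntn2, the axonal adhesion gene also known as TAG-1, was at 399 and 399 CPM against 232 and 262 CPM (log2 fold change 0.68 ± 0.0694 (SE), adjusted p = 0.00088). Ntm, which encodes neurotrimin, was at 1176 and 1296 CPM against 498 and 698 CPM (log2 fold change 1.03 ± 0.130 (SE), adjusted p = 0.00249). Slc17a6 was at 105 and 95.9 CPM against 176 and 176 CPM (log2 fold change -0.83 ± 0.137 (SE), adjusted p = 0.0111), the opposite direction to that against Unc5d-low cells. With DESeq2 neither Slc17a6 nor Cdh12 was called here. The largest higher folds were those of Clstn2, Slc4a4, Rbm24, Hs6st2, Bmpr1b, Abcc8, Ntm and Rspo3, from 2.0 to 2.62-fold, and Clstn2, a calsyntenin, was at 797 and 834 CPM against 291 and 326 CPM (log2 fold change 1.39 ± 0.0766 (SE), adjusted p = 2.8e-05). The largest lower folds were those of Gm32647, Reln, Zfpm2, Slit3, Hdac9, Rmst, Zbtb20 and Mgat4c. Zbtb20, a zinc finger repressor of progenitors and late-born neurons, was at 306 and 275 CPM against 801 and 666 CPM (log2 fold change -1.35 ± 0.0980 (SE), adjusted p = 0.00012), and Slit3, a secreted ligand of Robo receptors, at 56.6 and 78.5 CPM against 249 and 191 CPM (log2 fold change -1.72 ± 0.202 (SE), adjusted p = 0.00203). Reln, the defining gene of Cajal-Retzius cells, was at 27.6 and 27.2 CPM against 72.5 and 119 CPM (log2 fold change -1.82 ± 0.208 (SE), adjusted p = 0.00173), and the 6 markers of that cell type summed to 35.3 and 30.4 CPM against 85.5 and 131 CPM. Reln itself made up most of each sum, and the part of such cells was not tested. When 1 UMI of Neurod1 sufficed for the comparison cells, Rnd3, Foxp2, Nxph4, Cdh8, Cdh12, Nrcam, Cntn2, Slc17a6, Epha4, Rbm24, Rspo3 and Rmst kept their direction but were no longer called.

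The Hs3st4-high cells served as neurons of deep layer type in the same cortex. Against them 1403 of 14797 genes were higher (9.48%) and 1921 lower (13.0%) in the Unc5d-high cells, and the median log2 fold change over all genes was 0.026. Of the upper-layer factors, 9 of 12 were higher and 2 lower, with a median log2 fold change of 2.84, and of the deep-layer genes 0 of 13 were higher and 10 lower, with a median log2 fold change of -1.60. Cux2 was at 11.0 and 11.0 CPM and Pou3f1 at 6.4 and 7.15 CPM in the Hs3st4-high cells, against 245 and 238 CPM and 158 and 130.1 CPM in the members. The log2 fold changes were 4.37 ± 0.0834 (SE) and 4.32 ± 0.185, with adjusted p of 6.4e-10 and 5.4e-08. Tle4, a corepressor of layer 6 neurons, was at 109 and 128 CPM against 833 and 1079 CPM (log2 fold change -3.10 ± 0.131 (SE), adjusted p = 5e-08), and Zfpm2 at 103 and 87.7 CPM against 1514 and 1523 CPM (log2 fold change -4.08 ± 0.141 (SE), adjusted p = 1.4e-08). Tbr1 and Bcl11b were lower in the members as well, at -1.31 and -1.10 on the log2 scale.

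The guidance genes differed from the Hs3st4-high cells as follows. In the semaphorin list 10 of 20 were higher and 4 lower, with a median log2 fold change of 0.59. Plxna4 was at 1825 and 1902 CPM against 105 and 95.4 CPM (log2 fold change 4.13 ± 0.135 (SE), adjusted p = 1.1e-08), Nrp1 at 748 and 788 CPM against 41.9 and 54.4 CPM (log2 fold change 3.91 ± 0.121 (SE), adjusted p = 7.2e-09) and Sema3c at 72.1 and 76.4 CPM against 7.91 and 10.0 CPM (log2 fold change 2.97 ± 0.103 (SE), adjusted p = 1.4e-08). The antisense gene Plxna4os3 was also among the largest higher folds, and its reads cannot be told apart from those of Plxna4 where the counting does not use strand. In the netrin, Unc5 and Flrt list 3 of 11 were higher and 2 lower, with a median log2 fold change of -0.00. Flrt3 was at 115 and 92.2 CPM against 20 and 17.8 CPM (log2 fold change 2.36 ± 0.148 (SE), adjusted p = 7.9e-07) and Flrt2 at 145 and 157 CPM against 322 and 303 CPM (log2 fold change -1.14 ± 0.0812 (SE), adjusted p = 2.1e-06), so these Unc5d ligand genes lay on opposite sides. Unc5c was not called (log2 fold change -0.71 ± 0.360 (SE), adjusted p = 0.146), but was with the embryo as a block (log2 fold change -0.68, adjusted p = 0.00109). Of the migration regulators 5 of 20 were higher and 1 lower, with a median log2 fold change of 0.18, and Rnd2 (2.80), Pdzrn3 (4.34), Plcl1 (1.67), Zbtb18 (0.68) and Nedd9 (1.09) were higher and Cdh2 (-0.69) lower. Of the maturation genes, 5 of 22 were higher and 14 lower, with a median log2 fold change of -0.86, with Nefm (1.37), Syt4 (2.11), Gria2 (1.12), Ntm (0.64) and Slc17a6 (4.39) as the higher ones.

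Most of the other lists had called genes in both directions against the Hs3st4-high cells. Of the adhesion genes 5 of 22 were higher and 10 lower, with a median log2 fold change of -0.53, and of the newborn neuron genes 8 of 15 were higher and 1 lower, with a median log2 fold change of 0.60. Of the ephrins and Eph receptors 7 of 16 were higher and 3 lower, with a median log2 fold change of 0.37, and of the channel genes 3 of 18 were higher and 6 lower, with a median log2 fold change of -0.33. In the Reelin pathway 2 of 10 were higher and 3 lower, with a median log2 fold change of 0.04, and of the microtubule genes 0 of 16 were higher and 4 lower, with a median log2 fold change of -0.31. Cdh12 was at 334 and 348 CPM against 26.1 and 31.9 CPM (log2 fold change 3.47 ± 0.211 (SE), adjusted p = 6.6e-07) and Cdh13 at 480.1 and 542 CPM against 2418 and 2553 CPM (log2 fold change -2.37 ± 0.123 (SE), adjusted p = 2.1e-07). The largest lower folds were those of Mc4r, Nxph3, Tmem132d, Rgs6, Prickle1, Brinp1, Pdzd2 and Grik3, from 26.9 to 47.9-fold, and the largest higher folds were those of Slc17a6, Cux2, Pdzrn3, Pou3f1, Plxna4os3, Plxna4, Ndst3 and Nrp1. Rgs6, a regulator of G protein signalling, was at 43.1 and 49.1 CPM against 1445 and 1391 CPM (log2 fold change -5.03 ± 0.105 (SE), adjusted p = 7.2e-10). Prickle1, a planar polarity gene, was at 11.4 and 15.6 CPM against 394 and 429 CPM (log2 fold change -5.02 ± 0.186 (SE), adjusted p = 2e-08).

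**Figure D3:**
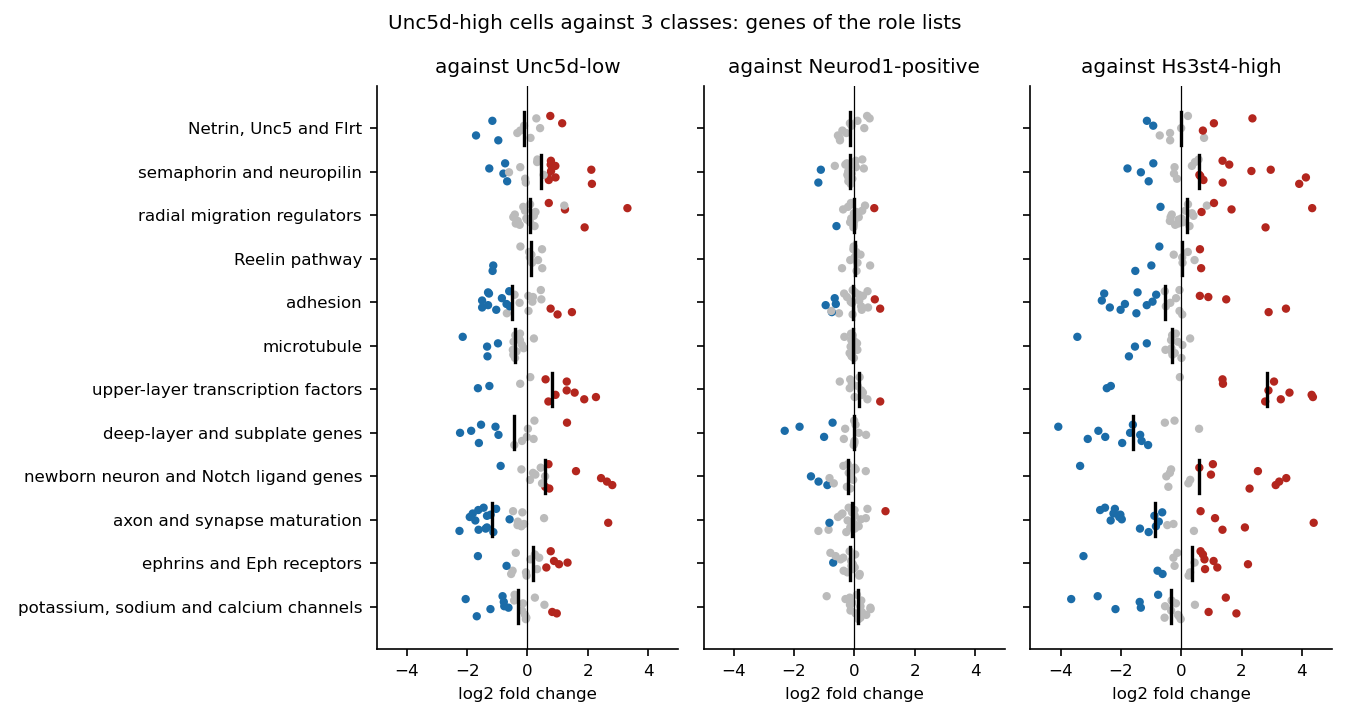
Log2 fold change (x axes) of each gene of 12 lists (rows) between Unc5d-high cells and Unc5d-low, Neurod1-positive and Hs3st4-high cells (panels). Red points were called higher, blue points called lower and grey points were not called, and black bars are list medians, such as 0.81 for upper-layer transcription factors and -1.17 for axon and synapse maturation against Unc5d-low cells.

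Some genes were called in 1 direction against each of the 3 classes, and their values are given side by side since the comparisons share the Unc5d-high sums. The higher ones included Hs6st2, Cdh12, Pdzrn3, Osbpl6, Smyd3 and Ppp2r1b. Hs6st2, a heparan sulfate sulfotransferase gene, was at 783 and 823 CPM in the Unc5d-high, 420.5 and 424 CPM in the Unc5d-low, 361 and 381 CPM in the Neurod1-positive and 330.0 and 324 CPM in the Hs3st4-high cells. Its log2 fold changes were 0.88, 1.10 and 1.21. Those of Cdh12 were 0.77, 0.86 and 3.47 and those of Pdzrn3 3.31, 0.66 and 4.34. The 12 lower genes named were Mgat4c, Reln, Zfpm2, Ncam2, Rprm, Csmd3, Vcan, Dlgap1, Adgrb3, Oxr1, Trim9 and Nrcam. Ncam2, a neural cell adhesion gene, was at 69.5 and 70.6 CPM in the Unc5d-high, 153 and 182 CPM in the Unc5d-low, 155 and 114 CPM in the Neurod1-positive and 140.2 and 152 CPM in the Hs3st4-high cells. Reln was lower than in the Unc5d-low cells with a log2 fold change of -1.23, which was -0.30 and not called among cells of 8000 to 16000 UMIs. Against the Neurod1-positive cells, Smyd3, Ppp2r1b and Oxr1 were not called with Unc5d-high cells taken from 3 UMIs.

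Layer genes were also followed cell by cell in the members. Bcl11b, a gene of corticofugal neurons, was found in 88.1% and 89.7% of the members, and in 62.0% and 65.6% after thinning. GABAergic neurons express Bcl11b themselves and gave 84.8% and 85.7%, so they set no background for this gene. Fezf2 was found in 35.6% and 29.2% and, thinned, 14.6% and 10.8%, against a background of 1.06% and 0.828% in thinned GABAergic neurons. In the Hs3st4-high cells the thinned share was 44.5% and 42.1% for Fezf2. Cux2, which GABAergic neurons express too, was found in 73.6% and 70.7% of the members. After thinning it was found in 46.3% and 45.5% of the members, 43.9% and 46.0% of the Neurod1-positive, 43.9% and 44.6% of the GABAergic and 2.49% and 1.51% of the Hs3st4-high cells. Pou3f2, an upper layer factor of the POU family, was found in 75.8% and 72.9% and, thinned, in 49.4% and 44.9%, against 8.20% and 7.81% of the thinned GABAergic neurons. Among the thinned members, Pou3f2 and Bcl11b were found in the same cell in 30.3% and 29.1%, Pou3f2 without Bcl11b in 19.1% and 15.8%, Bcl11b without Pou3f2 in 31.7% and 36.5%, and neither in 18.9% and 18.5%. A missing UMI in a thinned cell does not show that the gene was silent. The joint shares were not set against those that independent detection would give, so they do not show a link between the 2 genes.

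The members were not uniform. Within each embryo they were ordered by their Unc5d UMIs per 10000 UMIs and divided into tertiles of 285 or 286 cells, with median Unc5d values of 8.96, 23.0 and 48.8 per 10000 in embryo 4 and 7.74, 23.1 and 49.0 in embryo 5. The tertiles were chosen on Unc5d, so the values are a description without a test. The median depth was 11996 UMIs in the lowest and 8309 in the highest tertile of embryo 4, and 10784 and 7520.0 UMIs in embryo 5. Nrp1 was at 514, 776 and 1076 CPM from the lowest to the highest tertile of embryo 4 and at 473, 833 and 1224 CPM in embryo 5. Pdzrn3 was at 79.2, 149 and 214 CPM and at 82.4, 144 and 230.0 CPM, and Sema3c at 28.4, 60.1 and 154 CPM and at 37.8, 65.1 and 149 CPM. All 3 were higher in each step in both embryos. Of the 20 semaphorin and neuropilin genes, 6 were higher and 4 lower in each step. For this count and those of the lists below, the share of all genes with such an order was not computed. The counts therefore do not set a list apart. Markers of other cell types moved along as well. The 8 radial glia markers summed to 477, 427 and 344 CPM from the lowest to the highest tertile of embryo 4 and to 648, 425 and 298 CPM in embryo 5. The 7 cycling markers summed to 183, 120.2 and 109.7 CPM and to 297, 101 and 154 CPM. Both sums were highest in the lowest tertile, which was the deepest, and their part in the order was not tested.

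Of the 16 newborn neuron and Notch ligand genes, 8 were higher in each step in both embryos, none was lower in each step and 8 had no such order. Sstr2 was at 18.6, 40.3 and 96.3 CPM in embryo 4 and 14.7, 36.3 and 90 CPM in embryo 5, and Mfng at 3.51, 11.0 and 26.4 CPM and 4.32, 6.82 and 24.1 CPM. Slc17a6 was at 44.8, 109.9 and 191 CPM and 43.8, 89.0 and 185 CPM. Of the 22 axon and synapse maturation genes, 14 were lower in each step in both embryos, 2 were higher (Slc17a6 and Gria2) and 6 had no such order. Nlgn1 was at 975, 564 and 432 CPM and 1108, 606 and 378 CPM, Grin2b at 371, 174 and 88.8 CPM and 452, 252 and 82.0 CPM, and the microtubule-associated gene Mapt at 464, 249.5 and 169.6 CPM and 493, 304 and 189 CPM. Mef2c was at 345, 123 and 62.8 CPM and 348, 184 and 57.0 CPM. The level of each of these 4 genes was lower at more Unc5d in both embryos. Neurod6, a gene of the rule, was at 1073, 1059 and 1089.5 CPM and 1001, 1061 and 1089.7 CPM. Among the Unc5d ligand genes, Flrt2 was at 181 and 92.6 CPM in embryo 4 and at 198 and 98.9 CPM in embryo 5 in the lowest and the highest tertile. Foxp2, a forkhead factor of deep layers, was at 74.3, 143 and 288 CPM in embryo 4 and 67.5, 98.8 and 201 CPM in embryo 5.

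**Figure D4:**
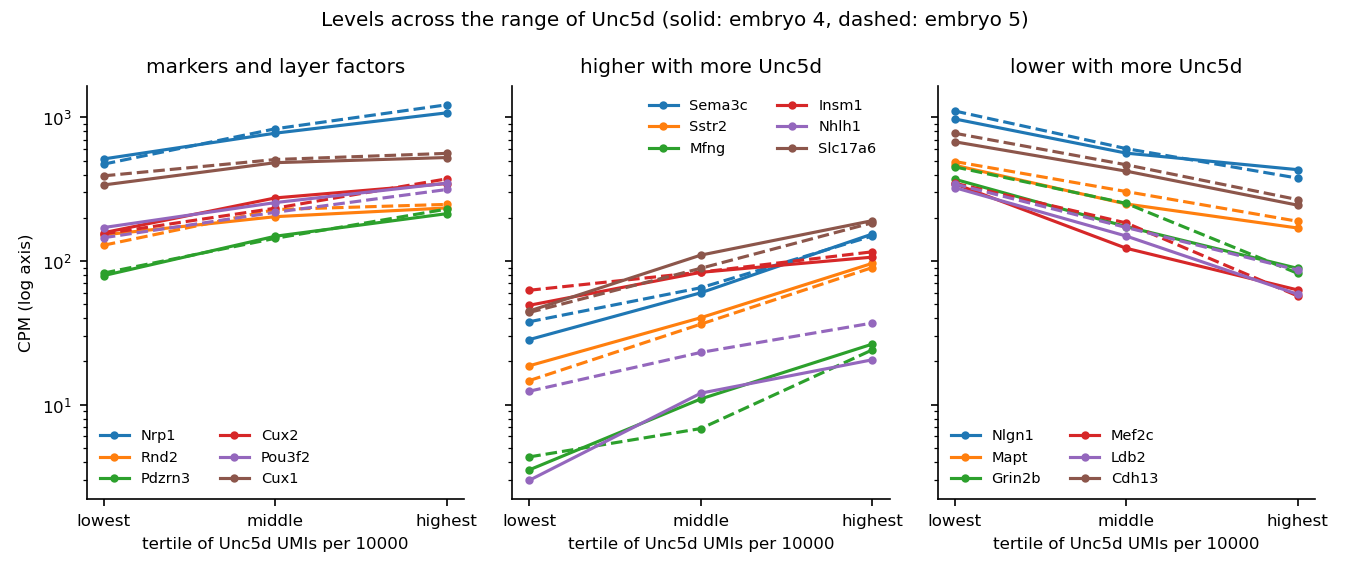
Levels (y axes, CPM, log axes) of 18 genes in Unc5d-high cells split by their Unc5d UMIs per 10000 UMIs into tertiles (x axes), for embryo 4 (solid lines) and embryo 5 (dashed lines). The genes plotted were chosen after their values were seen; Nrp1 was higher and Nlgn1 lower in each step.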

How the data were processed

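The deposited files held whole-number UMI counts per gene and barcode, 32285 genes in each of 2 libraries. The submitters' processing notes name Cell Ranger 7.0.0 and mm10, and the matrix headers name version 7.1.0. Whether intronic or antisense reads were counted is not given in the sources used here, and the counts hold no correction for free RNA. The authors' cell type names were not used, so classes rebuilt from counts may differ from theirs. The members, classes and gene lists were chosen with earlier results of these data known. For each embryo the raw counts of a class were added up, and the 8 sums of 4 classes were fitted together in edgeR 4.0.16 (R 4.3.3) with its low-count filter, TMM scaling, the quasi-likelihood test and Benjamini-Hochberg adjustment over 14797 genes. Genes were called at an adjusted p under 0.05 and at least 1.5-fold. The fit was also run on simulated sums, whose outcome is not reported here. These sums were drawn without a deviation shared within an embryo, so that run does not bear on the pairing described next. All sums of an embryo come from 1 animal, and same-numbered sums deviated together (correlations 0.179 to 0.266 over 14805 genes), so a fit with the embryo as a block was an alternative, as was DESeq2 1.42.0. Levels are CPM of the sums. With 2 embryos, an SD or SE rests on few degrees of freedom. Named genes were those of the lists with high levels or folds, the 8 largest called folds per direction with at least 50 CPM in the higher class, and up to 12 genes called alike in the 3 comparisons. Barcodes that scored as doublets, at a rate of 0.8% per 1000 barcodes, were kept and left out in an alternative. Thinning drew 3000 UMIs from each cell. Some genes named by the rule are not reported here.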

Additional observations from a re-analysis of the deposited data

How the results depend on the processing

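With no fold limit, 1620.0 genes were higher and 1847 lower than in Unc5d-low cells, 112 and 219 than in Neurod1-positive cells, and 2843 were higher than in Hs3st4-high cells. At 2-fold or more these counts were 355, 605, 19, 65 and 757. Against Neurod1-positive cells the counts were 100 higher and 237 lower with the embryo as a replicate block, 150 and 275 with no filter on low counts, and 31 and 76 when comparison cells needed 1 UMI of Neurod1. The other counts stayed within 1.5 times of those reported under the other settings, the block, DESeq2, the doublets left out and cells of 8000 to 16000 UMIs included. The share of Unc5d-high cells was 8.95% with at least 3 UMIs of Unc5d, 6.64% with at least 8, and 7.46 to 7.86% with 1 embryo left out. The median share of the members with a UMI over 14 layer genes was 69.7%, and 41.8% after thinning. Of the 102 values of genes named by the rule, 27 lost the call at 2-fold, 5 among cells of 8000 to 16000 UMIs, 4 with Unc5d at 3 UMIs, 2 with DESeq2 and 1 with Unc5d at 8 UMIs, as did 8 of 32 with 1 UMI of Neurod1. The block changed the call of none of them. Beyond these, the called values of list genes, the guidance genes and some uncalled values given in the text were followed. Among them the block ended the call of Ncam1 and gained that of Nhlh2, both against Unc5d-low cells. It also gained that of Sema5a against Neurod1-positive and of Unc5c against Hs3st4-high cells. Calls that other list genes may gain with the block were not looked for. Flrt2 against Neurod1-positive cells, which was not called, changed sign to -0.0316 (log2) with 1 UMI of Neurod1. Sema4d against Hs3st4-high cells, also not called, changed sign to 0.0071 (log2) among cells of 8000 to 16000 UMIs. Leaving out an embryo leaves no residual degrees of freedom, so fold changes alone were compared. All 406 values kept their direction, where a sign change of an uncalled value within 1 SE of 0 was not counted. Such a change occurred for Rnd2 against Neurod1-positive cells, at 190.4 against 205 CPM in embryo 4 and 192 against 183 CPM in embryo 5. The causes of these differences were not tested.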

Other observations

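Genes outside the role lists that also differed in the Unc5d-high cells included enzymes of heparan sulfate. Hs6st2, a sulfotransferase gene, was at 783 and 823 CPM in the members and 420.5 and 424 CPM in the Unc5d-low cells (log2 fold change 0.88 ± 0.0622 (SE), adjusted p = 6.1e-06, edgeR). Ndst3, an N-deacetylase and N-sulfotransferase gene, was at 241 and 233 CPM in the members, 211 and 244 CPM in the Neurod1-positive and 16.6 and 12.9 CPM in the Hs3st4-high cells. These genes were picked out after their values were seen.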
